A study of Mus musculus with 3 samples.

Results

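The transcripts of 44 complement and coagulation genes were followed in liver nuclei. Of these, 20 belong to the complement system and 24 to blood coagulation and the dissolution of clots, and they were picked by gene symbol among the 32285 features counted. Complement is a cascade of plasma proteins that tags and lyses microbes and damaged cells; it is started by the classical, lectin or alternative route, and all routes meet at C3 and end in the membrane attack complex. Coagulation is a cascade of proteases that turns fibrinogen into fibrin, held in check by plasma inhibitors and undone by plasmin. Hepatocytes secrete most of the proteins of both cascades into the blood, and several of them are acute phase proteins whose synthesis moves with inflammation.

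The nuclei came from frozen livers of male C57BL/6 mice that were 8 weeks old at the start, with 1 library per group. SD mice had a standard diet. MASLD mice had a diet and a sugar drink for 18 weeks to induce MASLD, that is, metabolic dysfunction-associated steatotic liver disease. Aza-TdC mice had that same diet and drink and were gavaged daily with 2 mg per kg of 5-Aza-4′-thio-2′-deoxycytidine, a cytidine analogue directed at DNMT1, the enzyme that copies DNA methylation at replication, from week 14 to week 18. No group had the compound on the standard diet, so Aza-TdC against MASLD compares mice on the diet, and Aza-TdC against SD changes diet and compound at once. How many animals each library holds is not stated in these sources, and with 1 library per group no test between groups was possible. All intervals are 95% intervals that cover counting error only, and differences between animals cannot be told apart from differences between groups.

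The libraries held 6928 to 7598 barcodes and 43569644 to 51789068 UMIs (unique molecular identifiers, 1 per captured RNA molecule), with a median of 5849 to 6383 UMIs per barcode. Pairs of libraries shared 9 to 15 barcode sequences and none was in all 3. The hepatocyte set held 6859 SD, 5965 MASLD and 6794 Aza-TdC nuclei, and all 10 hepatocyte markers were detected in each library. It includes cluster 13, with 3013 MASLD nuclei, which carried the 10 hepatocyte markers but also had the T cell gene Themis among its leading genes. Except for clusters 14 and 17, hepatocyte clusters were made up almost wholly of 1 library, and such a cluster can be that library and not a state. Cluster 12 is among these, with 2558 MASLD and 53 Aza-TdC nuclei. Signs of RNA quality differed between libraries. Of 12 genes for such signs, 4 were at least 2-fold higher in MASLD than in SD and 7 at least 2-fold lower in Aza-TdC than in MASLD, with medians of 0.73 and -1.29 on the log2 scale. In the order SD, MASLD, Aza-TdC, Actb was at 24.0, 89.2 and 34.5 CPM (counts per 1000000 UMIs) and mt-Nd1 at 69.6, 189 and 65.5 CPM. The 6 erythroid markers summed to 38.3, 364 and 59.8 CPM in the same order. The part of these signs in the results was not tested.

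Levels in CPM are the UMIs of a gene per 1000000 UMIs of the hepatocyte set of that library. Where 3 levels are given they are in the order SD, MASLD, Aza-TdC. A member is called higher or lower where its CPM differed by at least 2-fold, the interval of the log2 ratio excluded 0 and both libraries together held at least 20 UMIs. Against SD, the MASLD library had 1 complement member called higher (Cfd) and 1 called lower (C8b) of 20 measured, where over all 15754 features measured 12.9% were called higher and 4.89% lower. None of the 24 coagulation members was called in either direction. The median log2 ratio was -0.08 over complement and 0.05 over coagulation members, beside 0.15 over all measured features. Scaling by that median in place of the total moved the shares over all features to 10.5% higher and 6.33% lower and brought C1ra, F7 and Serpinf2 past the 2-fold limit on the lower side. Other alternatives of processing made these differences smaller. Over all of them the log2 ratio ran from -1.05 to -0.82 for C1ra, from -1.11 to -0.78 for F7 and from -1.04 to -0.54 for Serpinf2.

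Between Aza-TdC and MASLD, no complement member was called higher and 1 was called lower (Cfd), and 1 coagulation member was called higher (Fgg) and none lower. Over 15928 features measured, 2.81% were called higher and 4.78% lower, and with median scaling 3.51% and 3.91%. The medians were 0.19 over complement and 0.08 over coagulation members, beside -0.09 over all measured features. Between Aza-TdC and SD, 1 of 19 complement members was called lower (C8b) and 3 of 24 coagulation members higher (Fga, Fgb and Fgg), beside 10.0% of 15877 features called higher and 4.77% lower. Each library enters 2 of the 3 comparisons, so they are not independent. In all, 39 of the 44 members were called in none of the 3 comparisons. Most features were uncalled too: 12957 of 15754 in MASLD against SD, 14718 of 15928 in Aza-TdC against MASLD and 13528 of 15877 in Aza-TdC against SD. The share of all features called in none of the 3 was not computed, so the 39 members cannot be set against it.

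**Figure D1:**
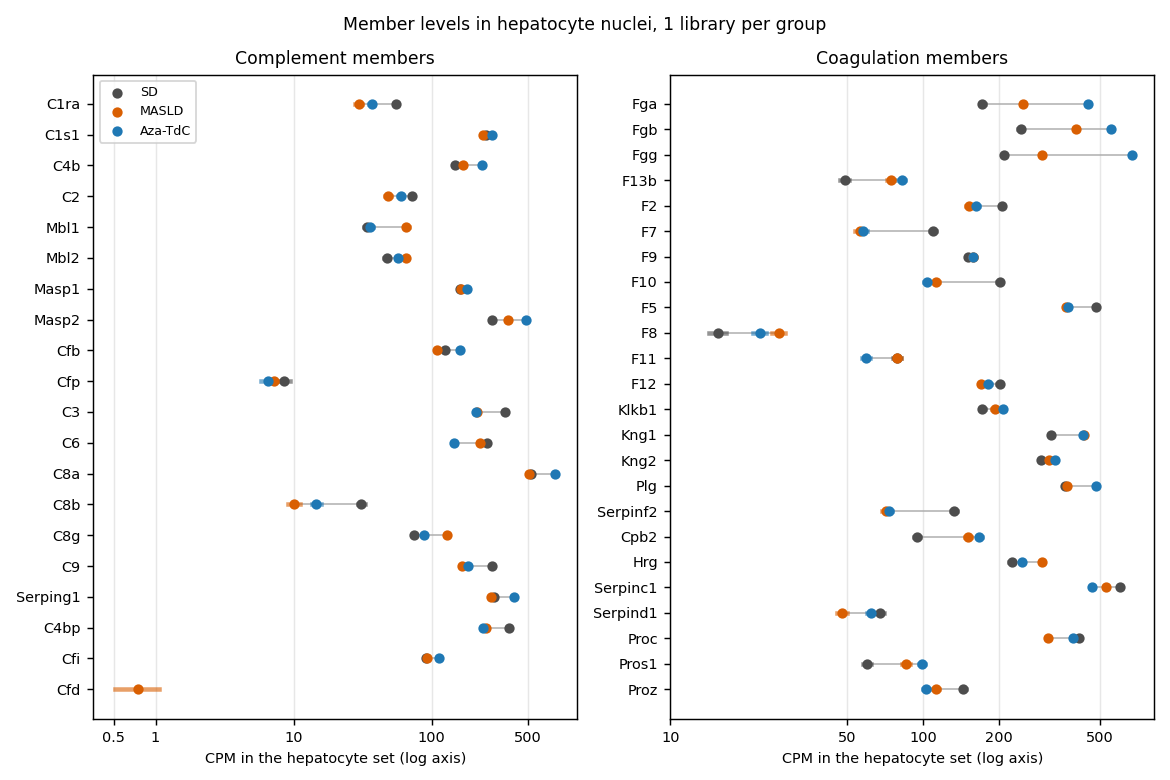
Level of each member in the hepatocyte set, in CPM on a log axis, with 1 point per library (SD grey, MASLD orange, Aza-TdC blue) and bars for Poisson 95% intervals. Fga, Fgb and Fgg run from SD over MASLD to Aza-TdC at 671 CPM for Fgg, C8b falls from 31.0 CPM (SD) to 10.1 CPM (MASLD), and Cfd has a point in MASLD only because it had 0 UMIs in the other libraries.

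The fibrinogen genes were the coagulation members at least 2-fold from the standard diet, all 3 in Aza-TdC. Fga, Fgb and Fgg encode the alpha, beta and gamma chains of fibrinogen, the precursor of fibrin and an acute phase protein. Fga was at 171, 248 and 448 CPM. Fgb was at 243, 405 and 554 CPM. Fgg was at 209, 297 and 671 CPM. Each of the 3 genes was lowest in SD, between in MASLD and highest in Aza-TdC, and no counting intervals of the levels overlapped. Against SD, the log2 ratio in MASLD was 0.54 (0.49 to 0.58) for Fga, 0.74 (0.70 to 0.77) for Fgb and 0.51 (0.47 to 0.54) for Fgg, all under 2-fold. Against MASLD, the ratio in Aza-TdC was 0.85 for Fga, 0.45 for Fgb and 1.18 (1.15 to 1.21) for Fgg, which was 2.26-fold. The call of Fgg rests on cluster 13, since without that cluster the log2 ratio to MASLD was 0.98, just under 2-fold. Against SD, Fgg in Aza-TdC was 3.21-fold, Fga 2.61-fold and Fgb 2.28-fold higher, and these calls held in all 13 alternatives of processing that were run. Some of these could not undo the calls. A change of the minimum count leaves such a ratio as it is, and cluster 13 held 0 SD and 13 Aza-TdC nuclei.

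The 3 genes lie within a short stretch of mouse chromosome 3 (GRCm38, GENCODE M21): Fgg at chr3:83007724-83015049 and Fga at chr3:83026076-83033627 on the plus strand, and Fgb at chr3:83040141-83049863 on the minus strand. The bases before their starts are shown because the 3 genes moved in 1 direction in both comparisons. They are RefSeq sequences of GRCm38.p6, printed 5′ to 3′ on the gene's strand, 250 bases long for Fgb and Fgg and 173 for Fga, whose stretch stops before the GENCODE start. Capitals mark matches, on either strand, to GTTAAT (the core of sites of the liver factor HNF1), TTCNNNGAA (the site of STAT factors, which carry the interleukin 6 signal of the acute phase) and TTGCNNAA (a site of C/EBP factors).
Fga, chr3:83025903-83026075, plus strand: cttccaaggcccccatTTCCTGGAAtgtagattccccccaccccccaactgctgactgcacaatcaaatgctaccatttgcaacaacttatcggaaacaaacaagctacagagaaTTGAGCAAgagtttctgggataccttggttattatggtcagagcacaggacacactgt
Fgb, chr3:83049864-83050113, minus strand: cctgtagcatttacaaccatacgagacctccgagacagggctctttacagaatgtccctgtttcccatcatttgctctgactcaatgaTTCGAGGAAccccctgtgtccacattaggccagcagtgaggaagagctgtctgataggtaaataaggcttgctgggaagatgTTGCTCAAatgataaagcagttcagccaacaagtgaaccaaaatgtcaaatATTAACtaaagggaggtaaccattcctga
Fgg, chr3:83007474-83007723, plus strand: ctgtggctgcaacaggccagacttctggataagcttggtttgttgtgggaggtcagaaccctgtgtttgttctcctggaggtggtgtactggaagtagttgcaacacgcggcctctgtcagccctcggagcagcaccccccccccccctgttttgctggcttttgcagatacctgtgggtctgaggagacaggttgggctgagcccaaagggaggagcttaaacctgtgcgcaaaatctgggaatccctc
In the 250 bases before the RefSeq start, Fga and Fgb each held 1 match to each of these 3 motifs, the HNF1 match of Fga lying past the printed stretch, and Fgg held none. Of 35 members with a RefSeq window, 9 held GTTAAT, 6 held TTCNNNGAA and 10 held TTGCNNAA, beside 6.43%, 7.02% and 9.56% of all 32851 windows. CAAAGTCCA, a site of HNF4, and GGGANTTCC, a site of NF-kB, were in 0 of the 35 members, beside 0.384% and 1.43% of all windows. A match is a description of the letters and says nothing about binding.

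Outside cluster 17, the clusters of MASLD and Aza-TdC lay apart for Fgg and Fga but met for Fgb. Fga was at 172 to 278 CPM in the MASLD clusters and 323 to 475 CPM in the Aza-TdC clusters. Fgb was at 454 CPM in MASLD cluster 12 and 455.5 CPM in Aza-TdC cluster 14. In SD, Fgg ran from 192 to 243 CPM over clusters 0, 1, 2 and 3. In MASLD it was at 335, 256 and 226 CPM in clusters 12, 13 and 14, and in Aza-TdC at 623 and 712 CPM in the large clusters 15 and 18. Cluster 14, whose leading genes include the pericentral genes Slc1a2 and Glul, had nuclei of both diet libraries, and Fgg was at 226 CPM in its MASLD nuclei and 491 CPM in its Aza-TdC nuclei. For Fga, Fgb and Fgg, cluster 17 stood above the rest of each library. It held 65 MASLD and 84 Aza-TdC nuclei, and its leading genes include Fgf21, Gadd45a, Nupr1 and Osgin1, which are known from stress responses. There Fga was at 636 and 676 CPM, Fgb at 1234 and 1183 CPM and Fgg at 866 and 1002 CPM in MASLD and Aza-TdC. Mbl2 (193 and 177 CPM) and Serpinf2 (145.5 and 185 CPM) were also above every other cluster of the same library with at least 50 nuclei there. So, by point value, were C3, C8g, Cfb, Cfi, F2, Kng1 and Serpind1 in both libraries. C4bp, F8, F11 and F12 were under every other such cluster in both. Fgf21 and the other leading genes were used to make the clusters, while the members were left out of them.

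**Figure D2:**
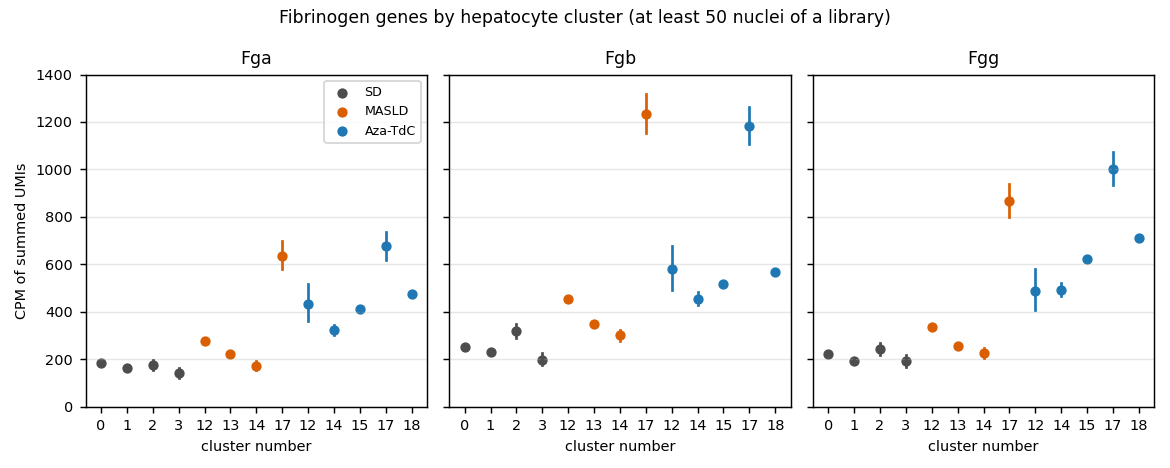
CPM of Fga, Fgb and Fgg in each hepatocyte cluster with at least 50 nuclei of a library, with Poisson 95% intervals; colours are libraries (SD grey, MASLD orange, Aza-TdC blue). Cluster 17 is highest for all 3 genes in both diet libraries, and for Fgg the other Aza-TdC clusters lie between 488 and 712 CPM, above the 3 other MASLD clusters.

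The share of nuclei with a fibrinogen UMI moved in the same way. After each nucleus was thinned to 3000 UMIs, which left out 626 SD, 343 MASLD and 314 Aza-TdC nuclei, Fgg was found in 42.7%, 54.5% and 80.3% of the hepatocyte set (62.9%, 75.9% and 93.0% without thinning). Fga was found in 36.5%, 47.0% and 65.9% and Fgb in 48.1%, 63.1% and 74.1%. Free RNA adds to such shares. Thinned to 1000 UMIs, Fgg was in 18.5%, 24.6% and 46.2% of hepatocyte nuclei and in 11.3%, 16.6% and 18.6% of endothelial-like nuclei, a class that should not make fibrinogen, where 115, 163 and 156 nuclei were used. The median depth was 5946, 6414 and 6756 UMIs in the hepatocyte set and 2095, 1801 and 1627 UMIs in endothelial-like nuclei. Between MASLD and Aza-TdC, the exact binomial intervals of the hepatocyte share lay apart (23.5 to 25.7% and 45.0 to 47.4%). Those of the endothelial-like share overlapped (11.2 to 23.2% and 12.8 to 25.6%). The endothelial-like intervals rest on 163 and 156 nuclei, beside 5964 and 6786 hepatocyte nuclei, and are wide for that reason. Overlap in 1 class only thus cannot tell the classes apart. The part of free RNA in the Fgg shares was not tested.

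Of the clotting proteases F2, F7, F9 and F10, all but F9 were lower in MASLD than in SD beyond counting error, each by less than 2-fold. F7 starts the extrinsic route with tissue factor, and the product of F10, once active, cleaves prothrombin. F7 was at 109, 56.2 and 58.0 CPM, F10 at 201, 112 and 104 CPM and F2, the gene of prothrombin, at 205, 152 and 163 CPM. All 3 were highest in SD, with MASLD and Aza-TdC close together. The log2 ratio of MASLD to SD was -0.96 (-1.03 to -0.89) for F7, -0.84 (-0.89 to -0.79) for F10 and -0.43 for F2, so that F7 missed the 2-fold limit narrowly. Over the alternatives of processing the ratio of F10 ran from -0.99 to -0.61. F9, the protease lost in haemophilia B, was even at 151, 158 and 157 CPM. Proz, a cofactor for the inhibition of factor X, was at 144, 113 and 102 CPM. F7, F10 and Proz lie in that order on chromosome 8, Proz 4.24 kb from F10, and all 3 had log2 ratios under 0 in MASLD against SD, with -0.36 for Proz.

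Among cofactors, F5, the partner of factor X, was at 485, 368 and 375 CPM and F8, lost in haemophilia A, at 15.4, 26.8 and 22.6 CPM in the hepatocyte set. F5 was thus highest in SD and F8 lowest there. F13b, the carrier subunit of the fibrin crosslinking factor, was lowest in SD at 48.9 CPM, beside 74.3 and 82.3 CPM. The contact system, which starts the intrinsic route, stayed within 1.5-fold in every comparison. F11 was at 78.8, 79.2 and 59.6 CPM, F12 at 201, 170 and 181 CPM and Klkb1, the gene of plasma prekallikrein, at 172, 192 and 208 CPM. Kng1 and Kng2, which encode kininogens and are near copies whose reads may be split, were at 320, 432 and 430 CPM and at 292, 316 and 333 CPM.

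Of the genes of clot dissolution, Plg, the gene of plasminogen, was at 364, 372 and 483 CPM, highest in Aza-TdC. Its span overlaps Slc22a3 on the opposite strand. Serpinf2, which encodes the main inhibitor of plasmin, was at 132, 71.2 and 73.0 CPM, a log2 ratio of -0.89 (-0.96 to -0.83) between MASLD and SD. Cpb2, which encodes a carboxypeptidase that protects fibrin from plasmin, went the opposite way at 94.5, 151 and 167 CPM, a ratio of 0.67 (0.62 to 0.73). Hrg, a plasma protein that binds plasminogen and heparin, was at 224, 294 and 246 CPM. These 2 inhibitors of clot dissolution thus differed in sign between MASLD and SD, each beyond counting error.

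The 4 anticoagulant members stayed under 2-fold in every comparison. Serpinc1, the gene of antithrombin, was at 601, 529 and 465 CPM, and Proc, the gene of protein C, at 414, 313 and 391 CPM. Serpind1, which encodes heparin cofactor II, was at 67.6, 47.9 and 62.3 CPM. Serpinc1 was lowest in Aza-TdC, while Proc and Serpind1 were lowest in MASLD. For Serpind1 this rests on cluster 13, without which its log2 ratio was -0.11 for MASLD against SD, beside -0.50 with it, and near 0 for Aza-TdC against MASLD. Pros1, the gene of protein S, the cofactor of protein C, was at 60.1, 85.5 and 98.8 CPM and so ran from SD to Aza-TdC like the fibrinogen genes.

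**Figure D3:**
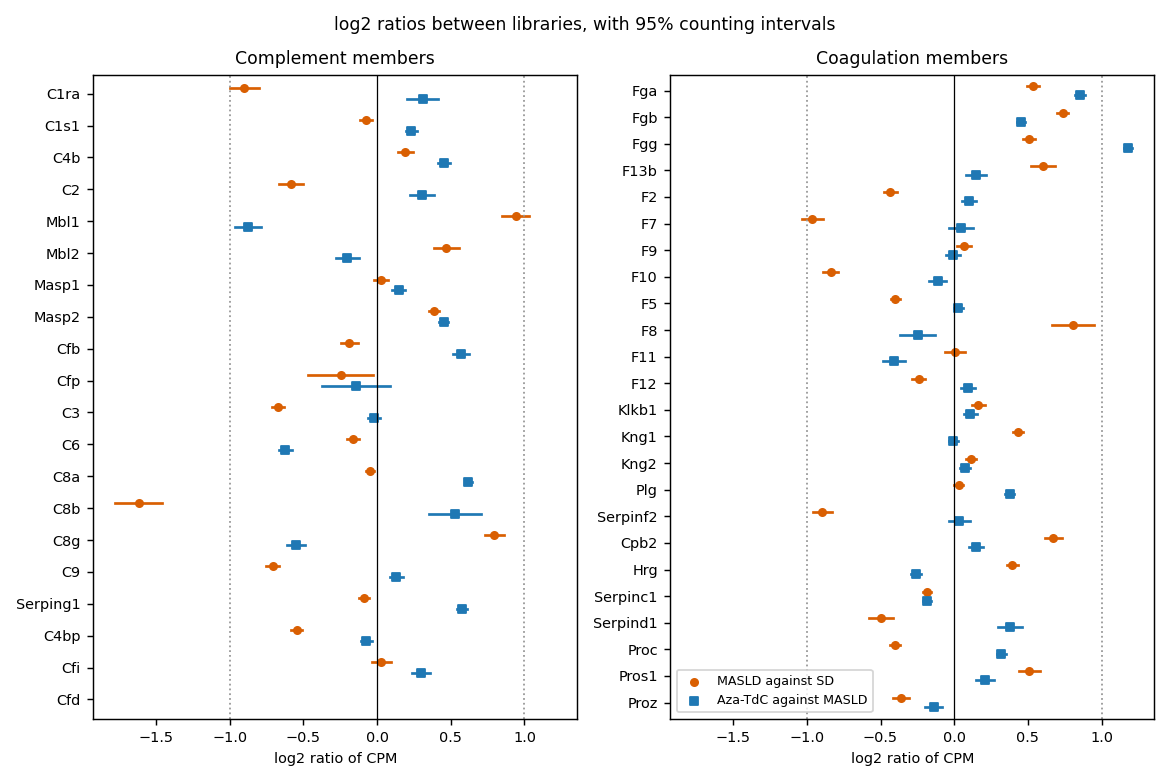
log2 ratio of CPM for each member between MASLD and SD (orange circles) and between Aza-TdC and MASLD (blue squares), with 95% counting intervals; dotted lines mark 2-fold. C8b at -1.61 and Fgg at 1.18 lie past the lines, and Cfd has no point because it had 0 UMIs in SD and in Aza-TdC.

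In complement, the membrane attack genes held the largest difference with many counts. C8 is made of 3 chains, encoded by C8a, C8b and C8g, that join C5b, C6, C7 and C9 in the pore. C8b was at 31.0, 10.1 and 14.6 CPM (1376, 418 and 726 UMIs), highest in SD and lowest in MASLD, with no overlap of the counting intervals. It was 3.06-fold lower (2.74 to 3.43) in MASLD than in SD, 2.12-fold lower in Aza-TdC than in SD, and 1.45-fold higher in Aza-TdC than in MASLD. Both calls against SD held in all 13 alternatives, with log2 ratios of -1.76 to -1.22 for MASLD against SD. The changes of the minimum count could not undo either call, nor could leaving out cluster 13 undo that of Aza-TdC. Thinned to 3000 UMIs, C8b was in 8.58%, 2.77% and 3.89% of hepatocyte nuclei (16.9%, 6.22% and 9.26% without thinning). At 1000 UMIs it was in 2.87%, 0.989% and 1.40%, and in endothelial-like nuclei in 1.74%, in 0 of 163 (exact upper bound 2.24%) and in 1.28%. The exact binomial intervals of the 2 classes overlapped in each library. Those of endothelial-like nuclei rest on only 115, 163 and 156 nuclei and are wide for that reason. At that depth the shares thus cannot be told apart from background, and the result rests on the summed UMIs. These can hold free RNA as well, and its part was not tested.

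C8a did not follow its partner. It was at 525, 508 and 780 CPM, near even in SD and MASLD with a log2 ratio of -0.05 (-0.08 to -0.02) and 1.54-fold higher in Aza-TdC than in MASLD. The genes face each other on chromosome 4, with C8b at chr4:104766317-104804548 on the plus strand and C8a at chr4:104815679-104876398 on the minus strand, 11.1 kb apart. The 250 RefSeq bases before each start are shown to set the neighbours side by side, with capitals for the same 3 motifs (GRCm38.p6, 5′ to 3′ on the gene's strand).
C8a, chr4:104876399-104876648, minus strand: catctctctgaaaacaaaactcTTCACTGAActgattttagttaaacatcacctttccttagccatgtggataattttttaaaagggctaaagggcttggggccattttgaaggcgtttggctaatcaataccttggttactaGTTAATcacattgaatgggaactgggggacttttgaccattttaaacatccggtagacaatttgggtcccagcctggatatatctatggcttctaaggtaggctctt
C8b, chr4:104766067-104766316, plus strand: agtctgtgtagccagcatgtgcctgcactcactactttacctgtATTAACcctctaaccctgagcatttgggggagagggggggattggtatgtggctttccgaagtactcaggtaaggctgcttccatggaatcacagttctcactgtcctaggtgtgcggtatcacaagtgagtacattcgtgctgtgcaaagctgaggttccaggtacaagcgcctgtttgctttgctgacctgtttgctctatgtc
C8a held a GTTAAT and a TTCNNNGAA match and C8b a GTTAAT match only.

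C8g, whose chain is linked to that of C8a, was at 74.2, 129 and 88.1 CPM and so went up in MASLD, with a log2 ratio of 0.80 (0.73 to 0.86), where C8b went down. The C8g locus overlaps Fbxw5 on the opposite strand. C6 was at 250, 223 and 145 CPM, lowest in Aza-TdC. C9, which forms the ring of the pore, was at 273, 167 and 183 CPM, highest in SD with a ratio of -0.71 (-0.75 to -0.67) in MASLD. The C9 value moved with the processing. Over the alternatives its ratio ran from -1.05, past 2-fold, when the log2 ratios of the 3 zones were averaged, to -0.10 without cluster 13. That average counts the central zone, at -2.17, as much as the other zones, although C9 was lowest there. That of C6 between Aza-TdC and MASLD ran from -1.12 to -0.01 under the same 2 settings, and without cluster 13 that between MASLD and SD was -0.78, beside -0.17 with it.

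C3, where all routes meet, was at 338, 212 and 209 CPM, highest in SD and within counting error in both diet libraries, with a log2 ratio of -0.67 (-0.71 to -0.63) for MASLD against SD. Over the alternatives of processing that ratio ran from -0.82 to -0.47. Of the classical route, C1ra was at 55.3, 29.6 and 36.8 CPM with a ratio of -0.90, while C1s1, its partner protease and neighbour on chromosome 6, was near even at 248, 235 and 276 CPM. Both have near copies, C1rb and C1s2, which were at 0.0727 CPM or less. C2 and C4b form the C3 convertase of the classical and lectin routes. C2 was at 72.3, 48.3 and 59.6 CPM and C4b at 149, 170 and 233 CPM, so that C2 was highest in SD and C4b highest in Aza-TdC. C4b has the near copy C4a, which was at 62.1, 40.1 and 31.6 CPM and went the other way; how reads were divided between the copies is not stated.

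The lectin route begins with mannose-binding lectins, which bind sugars on microbes, and the Masp proteases. Mbl1 was at 34.3, 65.8 and 35.9 CPM and Mbl2 at 47.3, 65.5 and 57.0 CPM. Mbl1 was high in MASLD alone, with a log2 ratio of 0.94 (0.85 to 1.03) to SD and of -0.87 (-0.96 to -0.79) from MASLD to Aza-TdC, so that Aza-TdC and SD lay within counting error of each other (0.07, -0.03 to 0.17). The signs of RNA quality given above, such as Actb and mt-Nd1, were also highest in MASLD, as was C8g; their part in Mbl1 and C8g was not tested. Over the 13 alternatives the ratio of MASLD to SD ran from 0.76 to 0.97 for Mbl1 and from 0.65 to 0.88 for C8g. Masp1 was at 160, 163 and 181 CPM and Masp2, which cleaves C4 and C2, at 273, 356 and 488 CPM, highest in Aza-TdC with a ratio of 0.84 (0.81 to 0.87) to SD. Masp2 overlaps Tardbp on the opposite strand.

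Of the alternative route, Cfb, the protease subunit of its convertase, was at 124, 109 and 162 CPM. Cfp, properdin, which steadies that convertase, was at 8.55, 7.20 and 6.52 CPM. Cfd, the protease adipsin that cleaves factor B and is best known from fat cells, had 31 UMIs in the MASLD hepatocyte set (0.751 CPM) and 0 UMIs in both SD and Aza-TdC. Against a floor of 3 UMIs per library, MASLD was at least 11.1-fold higher than SD and at least 12.4-fold higher than Aza-TdC, while the exact interval of the ratio, used for the other members, has lower bounds of 8.51-fold and 9.51-fold. The 31 UMIs came from 24 nuclei, of which 18 were in cluster 13, and without cluster 13 Cfd was no longer measured. The adipocyte markers Adipoq and Lep were at 0 in the same MASLD nuclei, and the 6 adipocyte markers summed to 15.5, 21.1 and 18.4 CPM.

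Of the regulators in plasma, Serping1 and Cfi were highest in Aza-TdC. Serping1, the inhibitor of C1 and of kallikrein, was at 284, 268 and 398 CPM, and Cfi, the protease that inactivates C3b, at 90.4, 92.2 and 113 CPM. C4bp, the binding protein of C4b, went the opposite way at 362, 248 and 236 CPM. In MASLD against SD the ratio of C4bp was -0.54 (-0.58 to -0.51), while those of Serping1 and Cfi were -0.09 and 0.03.

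Position along the lobule set some members apart. Nuclei were ranked in each library by 9 pericentral and 9 periportal markers and divided into 3 zones of equal size, portal, middle and central. In SD 1 of 19 complement members (C6) was at least 2-fold higher in the central zone and 0 in the portal zone, beside 3.31% and 2.52% of features, and 0 of 24 coagulation members in either. In MASLD 2 of 20 complement members were higher in the central zone (C6 and Cfd) and 2 in the portal zone (C9 and C8b), beside 3.79% and 3.91% of features, and of coagulation members only Serpind1, in the portal zone. In Aza-TdC C6 was higher in the central and C9 in the portal zone, beside 3.36% and 4.28%, with 0 of 24 coagulation members.

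C6 was at 132, 192 and 411 CPM in the portal, middle and central zones of SD. It was at 81.7, 188 and 391 CPM in MASLD and at 30.5, 56.3 and 340 CPM in Aza-TdC. The levels of the central zone thus lay closer together than those of the portal zone, giving central to portal log2 ratios of 1.64 (1.57 to 1.72), 2.26 (2.17 to 2.35) and 3.48 (3.35 to 3.61). C9 was at 303, 306 and 217 CPM in the zones of SD, at 306, 154 and 48.0 CPM in MASLD and at 270, 226 and 58.3 CPM in Aza-TdC. Its portal level in MASLD was like that in SD and the central level was far lower, with ratios of -0.48 (-0.55 to -0.42), -2.67 (-2.79 to -2.56) and -2.21 (-2.31 to -2.11). These intervals did not overlap between SD and either diet library. A low pericentral C9 level was not limited to the diet, however. In SD cluster 3, with 178 nuclei and Slc1a2 and Glul among its leading genes, C9 was at 30.3 CPM. It was at 246 to 313 CPM in SD clusters 0, 1 and 2. In cluster 14, C9 was lower still in both diet libraries. The central zone of SD held 2286 nuclei, so its ratio does not show the low level of cluster 3. Without cluster 13 the C9 ratio in MASLD was -1.07. The markers themselves also differed more between zones on the diet, Gls2 with -1.62, -4.94 and -3.29 and Ass1 with -0.14, -1.61 and -1.47, so the zones of the 3 libraries are not the same places, and the part of this was not tested.

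Cfd, with its 31 UMIs, had a central to portal ratio of 2.80 in MASLD with a wide interval (1.06 to 5.18). In the usual order of libraries, C8b had central to portal ratios of -0.54, -1.37 and -0.20, and Serpind1 of -0.60, -1.08 and -0.44. Without cluster 13 the MASLD ratios of C8b and Serpind1 were -0.75 and -0.67 and neither was past 2-fold. Pros1 was higher in the central zone of every library, with 0.60, 0.74 and 0.63, and F7 and F10 were higher in the portal zone of each, with -0.52, -0.56 and -0.61 for F7. C4bp was close to even in SD (0.06) and had a ratio of 0.63 (0.57 to 0.70) in Aza-TdC. The fibrinogen genes were slightly higher in the portal zone in every library, Fgg with -0.23, -0.54 and -0.32, and within each zone Fgg was lowest in SD and highest in Aza-TdC.

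**Figure D4:**
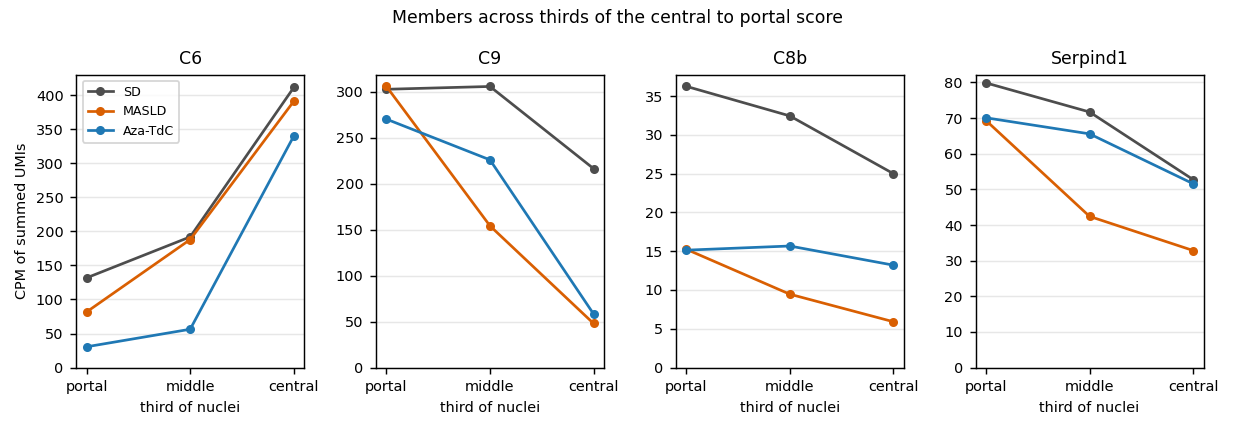
CPM of C6, C9, C8b and Serpind1 in the portal, middle and central zones of hepatocyte nuclei of each library (SD grey, MASLD orange, Aza-TdC blue). C6 climbs to the central zone in all 3 libraries, and C9 is at 217 CPM in the central zone of SD beside 48.0 and 58.3 CPM in the diet libraries.

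Several members were higher in other cell classes than in hepatocytes. RNA released from hepatocytes reaches all nuclei: hepatocyte markers stood in these classes at 0.276 to 0.740 of their hepatocyte level. F8 was led by endothelial-like nuclei, at 1389 (1260 to 1526), 1361 (1257 to 1471) and 1372 (1262 to 1489) CPM over 115, 181 and 183 nuclei. These levels did not differ between libraries beyond counting error, while F8 in the hepatocyte set was higher in MASLD and Aza-TdC than in SD. Endothelial markers summed to 17.2, 22.2 and 14.6 CPM in the hepatocyte set, and their part in its F8 level was not tested. F8 in stellate-like nuclei was at 46.5, 110 and 261 CPM, from only 11, 34 and 56 UMIs. The 10 endothelial markers summed to 292, 910 and 1728 CPM in the same stellate-like nuclei, and their part in the F8 level there was not tested. Pros1 was also above its hepatocyte level in endothelial-like nuclei, at 207, 312 and 214 CPM.

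Macrophage-like nuclei, of which there were 31, 216 and 317, held Cfp at 145, 246 and 274 CPM, where only the MASLD and Aza-TdC levels rest on at least 20 UMIs. Their Cfp was far above the 6.52 to 8.55 CPM of hepatocytes, with log2 ratios of 5.09 and 5.39. C6 was at 839 (660 to 1052), 499 (446 to 555) and 1261 (1196 to 1329) CPM there, above the hepatocyte level in all 3 libraries and highest in Aza-TdC, where the hepatocyte level was lowest. Pros1 was above the hepatocyte level in Aza-TdC macrophage-like nuclei at 132 CPM. Macrophage markers summed to 115, 186 and 198 CPM in the hepatocyte set.

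Masp1 was highest in stellate-like nuclei, at 520, 526 and 685 CPM, and close in SD and MASLD. C1ra and Pros1 were above the hepatocyte level in stellate-like nuclei of MASLD, at 65.0 and 146 CPM, and Pros1 and C6 in those of Aza-TdC, at 158 and 242 CPM. Mesothelial-like nuclei, 29, 49 and 57 in number, held the early complement genes. Their C3 was at 754 (581 to 963), 2582 (2324 to 2861) and 2169 (1945 to 2412) CPM, so it was lowest in SD, while C3 in hepatocytes was highest in SD. C4b was at 389, 835 and 668 CPM and C2 at 283, 354 and 273 CPM there. Cfb, C1ra and Serping1 were above the hepatocyte level in mesothelial-like nuclei of both diet libraries, Serping1 at 651 and 604 CPM. Fgg in the 23 T and NK-like nuclei of SD was at 354 CPM from 31 UMIs, the class with the highest share of hepatocyte RNA, and at 200 CPM, under the hepatocyte level, once that share was subtracted. After the same subtraction Pros1 in Aza-TdC macrophage-like nuclei was at 103 CPM, close to the hepatocyte level, while endothelial-like F8, macrophage-like Cfp, stellate-like Masp1 and mesothelial-like C3 stayed above it in every library named.

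**Figure D5:**
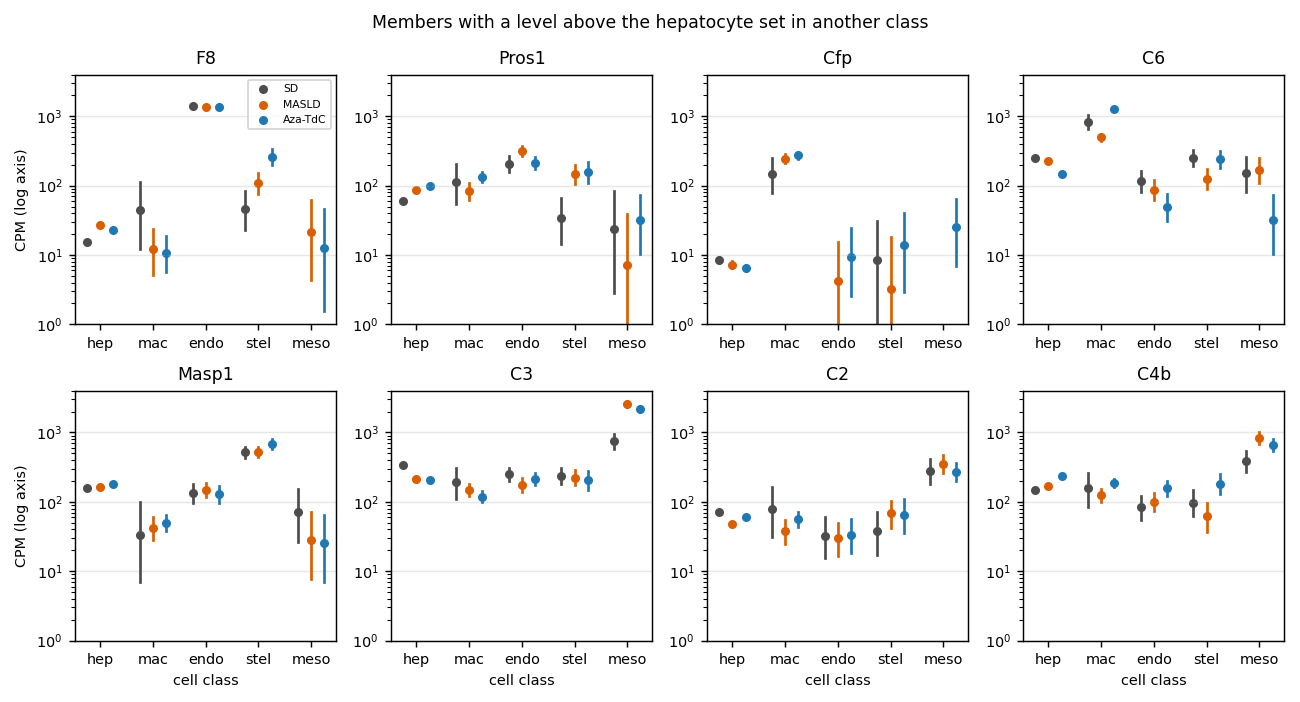
CPM of 8 members on a log axis in hepatocyte (hep), macrophage-like (mac), endothelial-like (endo), stellate-like (stel) and mesothelial-like (meso) nuclei, by library (SD grey, MASLD orange, Aza-TdC blue), with Poisson 95% intervals; levels of 0 are not drawn. F8 stands at 1361 to 1389 CPM in endothelial-like nuclei, and C3 at 2582 and 2169 CPM in mesothelial-like nuclei of the diet libraries.

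Other genes of the pathways were taken from wider lists. Of 30 other complement genes 21 were measured in the hepatocyte set of MASLD and SD, with 5 called higher and 0 lower, beside 12.9% and 4.89% of all features, and a median of 0.15. The 5 were C1qa, C1qb, C1qc, Fcna and Colec11, and their levels there were at most 5.87 CPM. In macrophage-like nuclei of MASLD C1qb was at 761 CPM, and in stellate-like nuclei Colec11 at 491 CPM. Hc, the gene of C5, was at 542, 454 and 588 CPM. Between Aza-TdC and MASLD 0 of 22 were called higher and 1 lower, C1qb (5.87 and 2.36 CPM), beside 2.81% and 4.78% of all features. Between Aza-TdC and SD 6 of 21 were called higher and 0 lower, beside 10.0% and 4.77% of all features.

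Of 25 other coagulation genes 16 were measured in MASLD and SD, with 4 called higher and 1 lower, beside the same 12.9% and 4.89%. Among those called higher, Tfpi2, an inhibitor of tissue factor and plasmin, was at 95.9, 275 and 247 CPM, and F3, tissue factor itself, at 6.50, 15.6 and 9.06 CPM. F2r, a thrombin receptor, was at 2.03, 8.82 and 6.84 CPM. Serpine2, an inhibitor of thrombin, was called lower at 35.6, 17.3 and 22.9 CPM. Between Aza-TdC and MASLD 2 of 17 were called higher and 0 lower, beside 2.81% and 4.78% of all features. These were Vwf, at 0.242 and 0.746 CPM, and Fgl1, a fibrinogen-like hepatocyte protein, at 61.2 and 140 CPM with a log2 ratio of 1.20, beside 1.18 for Fgg. The endothelial-like cluster 10, led by Vwf, held 5 MASLD and 37 Aza-TdC nuclei, and its part in the Vwf level of the hepatocyte set was not tested. Between Aza-TdC and SD 7 of 16 were called higher and 0 lower, beside the same 10.0% and 4.77%.

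Of 9 genes of the vitamin K cycle and of secretion, 1 was called higher in MASLD than in SD, Vkorc1, the target of warfarin, at 16.3, 41.4 and 22.9 CPM, and 0 were called between Aza-TdC and MASLD. That is 1 of 9, beside 12.9% of all features called higher. The median log2 ratio of MASLD to SD was 0.33, with 7 of 9 above 0. Over all measured features the median was 0.15, with 9551 of 15754 above 0. Ggcx, the carboxylase that uses vitamin K, was at 36.7, 49.7 and 53.6 CPM. Among 19 liver and acute phase regulators, 2 were called higher in MASLD than in SD, Cebpa (42.4, 85.6 and 52.6 CPM) and Foxa2 (22.7, 46.1 and 34.8 CPM), and 2 lower, Foxa3 (133.5, 55.3 and 66.8 CPM) and Onecut1 (518, 151 and 61.2 CPM). Over all features 12.9% were called higher and 4.89% lower in that comparison. Onecut1 was also called lower in Aza-TdC than in MASLD, the 1 regulator called there, beside 2.81% of all features called higher and 4.78% lower. Hnf4a was at 407, 216 and 254 CPM and Il6ra, the interleukin 6 receptor, at 520, 295 and 385 CPM, both highest in SD. Stat3 was at 201, 161 and 238 CPM, and Socs3, a target of that signal, was even at 3.27, 3.44 and 3.27 CPM.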

How the data were processed

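The deposited files hold raw UMI counts for each gene in each nucleus; per the file headers the authors used Cell Ranger 6.1.2. Seurat 4.4.0 and 2 names of one build, mm10 and GRCm38, stand in the submitters' processing notes with no role. Annotation, counting of introns, use of strand and any correction for free RNA or doublets: not given in the sources used here. Nuclei were sorted on DAPI from 120 mg of frozen liver and run with 10x 3′ chemistry, per the labels' protocols. Members and gene lists were chosen with earlier results of these data known.

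A nucleus was kept if it had 500 or more UMIs, 300 or more genes and no more than 5% of UMIs from mitochondria (7139 SD, 6726 MASLD and 7591 Aza-TdC; 0, 202 and 7 removed). They were clustered without the members and the other pathway genes (scanpy 1.11.5, igraph 0.11.9; 3000 variable genes, 30 components, 15 neighbours, Leiden resolution 1) and named from 13 marker lists. Cluster 13 was placed in the hepatocyte set after the clusters were seen. Clusters 11 and 16 stayed without a name and out of every class. No doublet caller was run. UMIs were summed per library and class, scaled to CPM, and compared as log2 ratios with exact conditional binomial intervals (scipy 1.17.1); levels have exact Poisson and shares exact Clopper-Pearson intervals. The interval and the calling rule were tested on simulated Poisson counts, the model that the interval assumes, with no spread between animals or nuclei. That test thus checks the computation and says nothing about differences between animals. By rule, values in every library were given for members called in MASLD against SD or Aza-TdC against MASLD and for the 4 highest of each list in SD, members higher in another class (at least 20 UMIs there, interval excluding 0) were named, and up to 4 higher and 4 lower genes of each other list; the remaining members, Hc, C4a, Ggcx, Hnf4a, Il6ra, Stat3 and Socs3 were added after their values were seen. Some genes of the other lists are not reported here. Summed levels of each list were not used. Coordinates are from GENCODE M21 (GRCm38), promoter windows from RefSeq GRCm38.p6, which held 35 of the 44 members. Alternatives changed 1 choice at a time: the scaling, the filters on nuclei, the clustering and naming, averaging over nuclei or over the log2 ratios of zones, the minimum count and free RNA.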

Additional observations from a re-analysis of the deposited data

Results flagged for a closer look

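In 7 cases, over the 3 comparisons, a member went 1 way in hepatocytes and the opposite way in another class that had the higher level in both libraries, with both counting intervals excluding 0. The difference between classes was not tested in any of them. The combinations of member, class and comparison open to this rule were not counted, nor was the share of all features that met it. Whether 7 is many or few is thus not known. C3 had a log2 ratio of 1.78 in mesothelial-like nuclei and -0.67 in hepatocytes for MASLD against SD, and of 1.52 and -0.69 for Aza-TdC against SD. The 10 stellate markers summed to 1284, 2016 and 2150 CPM in mesothelial-like nuclei of SD, MASLD and Aza-TdC. C6 had a ratio of 1.34 in macrophage-like nuclei and -0.62 in hepatocytes for Aza-TdC against MASLD, and of 0.59 and -0.79 for Aza-TdC against SD. Cfp had 0.91 in macrophage-like nuclei, from 13 UMIs in SD, and -0.39 in hepatocytes for Aza-TdC against SD. The 10 macrophage markers summed to 5001, 6469 and 10884 CPM in macrophage-like nuclei of the 3 libraries. Pros1 in Aza-TdC against MASLD had -0.55 in endothelial-like nuclei and 0.21 in hepatocytes. F8 in Aza-TdC against MASLD had 1.24 in stellate-like nuclei and -0.25 in hepatocytes, and the 10 endothelial markers summed to 910 and 1728 CPM in the stellate-like nuclei of MASLD and Aza-TdC. The part of these markers in the ratios was not tested.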

How the results depend on the processing

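No paired analysis was possible because each group had 1 library. The counts of members called and the medians were recomputed under 13 alternatives, of which 2, leaving out cluster 13 or cluster 17, were chosen after seeing the data. All 78 medians and 144 of 156 counts stayed within their limits (1.5 times for counts, the order-statistic interval over members for medians), and no called value changed sign. The limits of the medians reflect the spread of unlike members, which are not replicates. They are wide, such as -0.54 to 0.19 for complement in MASLD against SD, so a median staying within them says little. Single values also moved past their counting intervals, counted here as pairs of 1 value and 1 alternative. For member ratios 253 pairs did and 1424 did not. The latter include changes of the minimum count, which cannot move a ratio. The pairs were 29 and 881 for central to portal ratios and 6 and 31 for class levels with free RNA subtracted. They were 129 and 3 for shares of nuclei without thinning. Without cluster 13, the count went to 0 for complement higher in MASLD than SD (Cfd), complement lower in Aza-TdC than MASLD (Cfd) and coagulation higher in Aza-TdC than MASLD (Fgg). With at least 100 UMIs, the 2 counts that were Cfd also went to 0. With median-ratio scaling, complement lower in MASLD than SD went from 1 to 2 (C8b and C1ra), coagulation lower in MASLD than SD from 0 to 2 (F7 and Serpinf2) and coagulation lower in Aza-TdC than SD from 0 to 1 (F10). With a total that left out the 20 most abundant features and mitochondrial genes, coagulation lower in MASLD than SD went to 1 (F7). With the log2 ratios of the 3 zones averaged, complement lower went to 2 in MASLD against SD (C8b and C9), in Aza-TdC against MASLD (C6 and Cfd) and in Aza-TdC against SD (C6 and C8b). The means over nuclei and over zones carry no interval, so only the 2-fold limit was used there. The depth of the other classes, with as few as 29 mesothelial-like nuclei in SD, limits what they show.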
